A study of Mus musculus with 34 samples.

Results

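The 10 genes described here encode the receptors with which platelets hold on to a damaged vessel wall and to each other: Gp1ba, Gp1bb, Gp5 and Gp9 of the GPIb-IX-V complex, the collagen receptor Gp6, the fibrinogen receptor subunits Itga2b and Itgb3, the granule membrane receptors Treml1 and Selp, and the adhesive ligand Vwf. They were matched by symbol to Ensembl gene IDs, 1 ID each, among the 54532 gene IDs counted in blood samples of wild-type mice. Count tables of 30 libraries were analysed, 1 mouse each: 7 mice given ALY688 and LPS, 4 given LPS, 10 given ALY688 and 9 given PBS. Mouse numbers recur between the groups, and the labels do not say whether equal numbers are the same animal. ALY688 is an agonist of the adiponectin receptors, and LPS, a cell wall component of Gram-negative bacteria, was used in a sublethal model of inflammation. Dose, time, age and sex were not given in the sources used here, and 4 further labelled samples (1 PBS and 3 LPS) were not analysed here. The series' design text speaks of plasma for the part with and without ALY688 and of whole blood for the LPS model, whereas every sample is labelled as blood. The mice given LPS and the mice without LPS may therefore come from separate experiments, and an effect of LPS and a difference between experiments cannot be told apart.

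Platelets have no nucleus and carry mRNA handed down from the megakaryocyte, so that the transcripts of these genes in blood are mostly read from platelets. On exposed collagen under flow, the GPIb-IX-V complex tethers the platelet to von Willebrand factor, GPVI binds the collagen itself and signals through the Fc receptor γ chain, and integrin αIIbβ3 then changes shape and binds fibrinogen, which links platelets to each other. P-selectin and TLT-1 wait in the membrane of the α granules and reach the surface when the granules fuse with it, where P-selectin binds PSGL-1 on leukocytes. In megakaryocytes many of these genes are classical targets of GATA and ETS transcription factors.

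Sequences before the transcription start were read from RefSeq (GRCm38.p6) for 8 of the 10 genes, 250 bases each, and are shown for the 3 that hold the letters GATAAG, the core that GATA factors prefer, in capitals. Reading towards the start, the first base of GATAAG lay 103 bases before the start of Gp1ba, 143 before that of Gp6 and 43 before that of Gp9. The Gp1ba window is chr11:70638872-70639121 on the plus strand, the Gp6 window chr7:4397745-4397994 on the minus strand and the Gp9 window chr6:87777820-87778069 on the plus strand.
Gp1ba: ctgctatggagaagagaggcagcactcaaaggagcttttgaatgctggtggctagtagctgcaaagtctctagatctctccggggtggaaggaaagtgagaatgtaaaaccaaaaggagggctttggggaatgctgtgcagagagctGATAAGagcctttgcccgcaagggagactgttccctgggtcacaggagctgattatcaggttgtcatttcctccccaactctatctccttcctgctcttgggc
Gp6: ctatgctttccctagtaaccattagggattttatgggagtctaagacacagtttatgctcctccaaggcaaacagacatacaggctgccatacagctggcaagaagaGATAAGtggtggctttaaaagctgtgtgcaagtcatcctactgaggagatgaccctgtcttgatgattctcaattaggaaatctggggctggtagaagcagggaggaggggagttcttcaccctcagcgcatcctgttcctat
Gp9: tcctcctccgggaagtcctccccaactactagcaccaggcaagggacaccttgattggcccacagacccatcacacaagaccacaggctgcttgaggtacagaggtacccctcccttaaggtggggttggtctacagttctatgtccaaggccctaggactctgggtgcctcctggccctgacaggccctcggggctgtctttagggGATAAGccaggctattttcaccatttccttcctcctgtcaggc
Searched on both strands, GATAAG was found in 3 of the 8 windows and in 6.55% of 32851 mouse windows of the same length. AGGAAG, a core that ETS factors bind, was found on either strand in 5 of the 8 (Gp1ba, Gp5, Gp9, Itga2b and Selp) and in 29.5% of all windows. Gp1ba and Gp9 held both. These matches describe the letters only.

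The libraries held 9554964 to 17338214 counts each. The 11 globin genes took up 40.5 ± 10.97% of the counts in ALY688+LPS mice, 30.4 ± 10.4% in LPS mice, 49.2 ± 6.51% in ALY688 mice and 56.3 ± 6.22% in PBS mice (SD, n = 7, 4, 10 and 9), so the mean share was lower in both LPS-treated groups than in their counterparts. In 6 libraries (ALY688+LPS mice 6 and 8, ALY688 mouse 7, and PBS mice 5, 6 and 9) fewer than 16000 genes had a count. After TMM scaling, these 6 included the libraries with the highest member levels of the ALY688+LPS, ALY688 and PBS groups. As a summed share of all counts, the members of PBS mouse 9 stayed the highest of the group (0.732%). ALY688 mouse 7 had 0.285% on that scale, below its group's median of 0.345%. ALY688+LPS mouse 8 had 0.226%, below its group's median of 0.287%. Summed levels of 7 neutrophil markers ran from 4909 to 12029 CPM (TMM-scaled counts per 1000000 counts) in ALY688+LPS mice and from 3786 to 12268 CPM in LPS mice, against 433 to 1005 CPM in ALY688 mice and 485 to 1838 CPM in PBS mice. In such bulk libraries a lower level of a platelet transcript can come from fewer platelets or from less RNA per platelet, and these cannot be told apart. No label says how the samples of a group were taken beyond the mouse, so p-values measure the spread between these mice.

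Levels were expressed as CPM after TMM scaling, which sets each library's scale so that most genes keep a common level. The plot of CPM by library shows all 9 measurable members together.

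**Figure D1:**
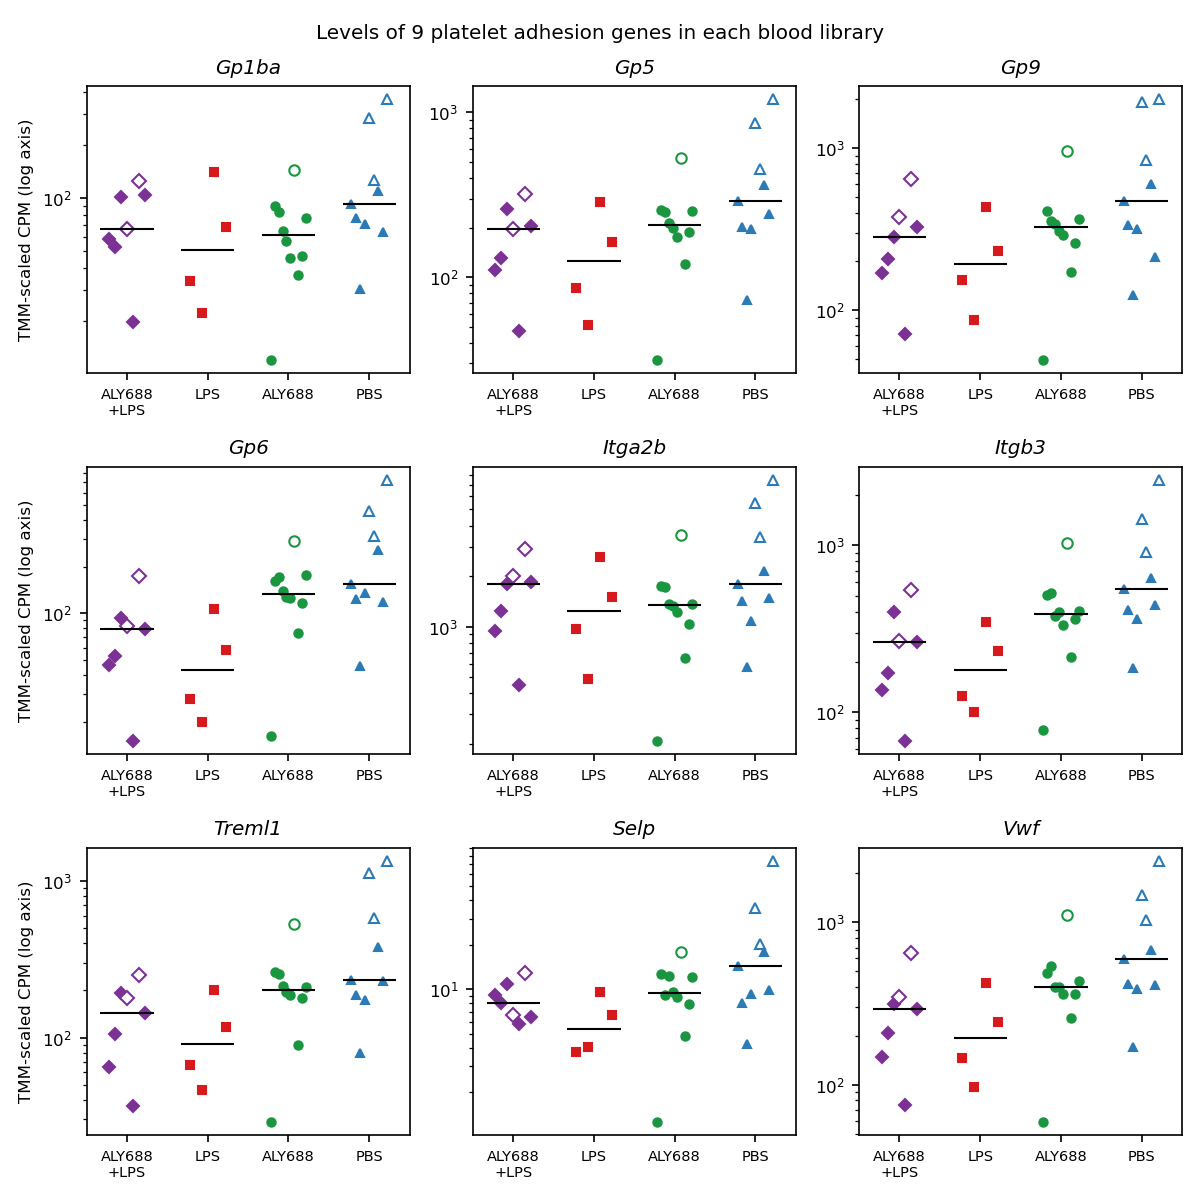
Level of 9 platelet adhesion genes in each library, as TMM-scaled CPM on a log axis, in the ALY688+LPS, LPS, ALY688 and PBS groups. Each point is 1 mouse, the line is the group's median, and open symbols are the 6 libraries with fewer than 16000 genes detected. On this TMM scale they include the highest library of the ALY688+LPS, ALY688 and PBS groups. In every panel the groups overlap: Itga2b ran from 447 to 2910 CPM in ALY688+LPS mice and from 572 to 7488 CPM in PBS mice.

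The GPIb-IX-V complex was represented by Gp1ba, Gp5 and Gp9. Gp1ba (ENSMUSG00000050675, chr11:70639122-70642036, GRCm38), whose product carries the binding site for von Willebrand factor, had a lowest, median and highest level of 19.8, 66.7 and 125 CPM in the 7 ALY688+LPS mice. In LPS mice 2, 6, 7 and 8 it had 33.8, 22.2, 141 and 68.1 CPM, against 11.98, 61.3 and 145 CPM (lowest, median and highest) in the 10 ALY688 mice and 30.5, 92.1 and 366 CPM in the 9 PBS mice. All 4 groups overlapped, and 1 LPS library, that of mouse 7, stood above the PBS median. Gp5 (ENSMUSG00000047953, chr16:30307685-30310779), the thrombin-cleaved subunit of the complex, had 47.2, 195 and 322 CPM in ALY688+LPS mice and 86.2, 51.1, 286 and 163 CPM in the 4 LPS mice. It had 31.4, 206 and 525 CPM in ALY688 mice and 72.3, 288 and 1204 CPM in PBS mice. All 4 LPS mice lay below the PBS median, and mouse 6 below the lowest PBS mouse. Gp9 (ENSMUSG00000030054, chr6:87778072-87779768), the small subunit needed to bring the complex to the surface, had 71.0, 285 and 650 CPM in ALY688+LPS mice and 154, 87.3, 435 and 232 CPM in LPS mice. Its levels were 49.2, 325 and 967 CPM in ALY688 mice and 123, 473 and 2013 CPM in PBS mice. Mouse 7 was the highest of the LPS mice for each of the 3 genes and mouse 6 the lowest.

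Gp1bb (ENSMUSG00000050761, chr16:18620317-18622403), the disulphide-linked partner of Gp1ba, could not be followed. It had 49 counts over all 30 libraries, in 17 of them, with at most 11 in a library; the sums were 30 in ALY688+LPS mice, 3 in LPS mice, 9 in ALY688 mice and 7 in PBS mice. The annotation places 92.9% of its 2087 exon bases inside exons of Sept5 and Gm49601 on the same strand, and reads shared by several genes can be left out of gene counts. Sept5, a septin gene next to it, had 205 counts in ALY688+LPS mice, 150 in LPS mice, 53 in ALY688 mice and 32 in PBS mice. Gp1bb did not pass the filter on low counts, so 9 of the 10 members were tested. The authors' counting rule for shared reads is not given in the sources used here, and the low count was not tested against it.

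Gp6 (ENSMUSG00000078810, chr7:4363965-4397744), the collagen receptor, had 15.0, 79.7 and 175 CPM in ALY688+LPS mice and 27.8, 19.8, 107 and 57.9 CPM in LPS mice 2, 6, 7 and 8. It had 16.3, 133 and 292 CPM in ALY688 mice and 45.9, 155 and 722 CPM in PBS mice. All 4 LPS mice were below the PBS median, and 2 of them, mice 2 and 6, were below the lowest PBS mouse.

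Of the fibrinogen receptor, Itga2b (ENSMUSG00000034664, chr11:102453297-102470122), the αIIb subunit, was the most abundant member by CPM. Its lowest, median and highest levels were 447, 1808 and 2910 CPM in ALY688+LPS mice and it had 974, 486, 2597 and 1510 CPM in LPS mice, against 208, 1346 and 3533 CPM in ALY688 mice and 572, 1808 and 7488 CPM in PBS mice. The medians of ALY688+LPS and PBS mice were both 1808 CPM. Itgb3 (ENSMUSG00000020689, chr11:104608000-104670476), the β3 subunit, had 67.3, 264 and 539 CPM in ALY688+LPS mice and 126, 101, 349 and 231 CPM in LPS mice. It had 78.7, 388 and 1038 CPM in ALY688 mice and 184, 550 and 2458 CPM in PBS mice. Unlike αIIb, the β3 transcript had a lower median in ALY688+LPS mice than in either group without LPS.

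Treml1 (ENSMUSG00000023993, chr17:48359916-48367176), which encodes the α granule receptor TLT-1, had 36.8, 145 and 252 CPM in ALY688+LPS mice and 66.5, 46.5, 202 and 117 CPM in LPS mice. It had 28.9, 202 and 531 CPM in ALY688 mice and 79.6, 234 and 1341 CPM in PBS mice. All 4 LPS mice lay below the PBS median. Selp (ENSMUSG00000026580, chr1:164115264-164150026), which encodes P-selectin, was the lowest of the tested members, with 5.79, 8.04 and 12.8 CPM in ALY688+LPS mice and 3.77, 4.08, 9.56 and 6.71 CPM in LPS mice. Its levels were 1.26, 9.37 and 17.9 CPM in ALY688 mice and 4.22, 14.3 and 73.8 CPM in PBS mice. A stretch of 14.1% of its exon bases lies opposite Gm16548 and Gm16587, which had at most 23 counts in a group. Vwf (ENSMUSG00000001930, chr6:125546774-125686679), the ligand that the GPIb-IX-V complex binds, had 74.7, 294 and 649 CPM in ALY688+LPS mice and 145, 96.4, 422 and 245 CPM in LPS mice. It had 59.0, 400 and 1115 CPM in ALY688 mice and 170, 598 and 2386 CPM in PBS mice. For Selp and Vwf alike the 4 groups overlapped, and LPS mice 2 and 6 lay below the lowest PBS mouse. Both are also made by endothelium. Of 12 endothelial markers all had a count in ALY688+LPS, LPS and ALY688 mice and 11 in PBS mice, where Robo4 was at 0. Their summed level was 96.5 to 394 CPM in ALY688+LPS mice, 97.8 to 259.7 CPM in LPS mice, 98.7 to 461 CPM in ALY688 mice and 141 to 1043 CPM in PBS mice. Pecam1, with 1202 to 3693 counts in a library, and Esam, with 143 to 1251, gave the most, and platelets carry both. Tie1 had 18 to 177 counts, Cdh5 0 to 57 and Kdr 7 to 47, and the other 7 at most 29 in any library, where Vwf had 891 to 10598 counts and Selp 19 to 328. The part of endothelial RNA in the Vwf and Selp levels was not tested.

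Set against gene length, the order of mean levels in ALY688+LPS mice was Gp9 at 338 CPM per kilobase of exon, Itga2b at 293, Treml1 at 99.1, Gp5 at 82.3, Itgb3 at 44.7, Gp1ba at 27.8, Vwf at 18.1, Gp6 at 13.2 and Selp at 1.94. Neighbours kept this order in at least 6 of 7 mice, except Gp9 over Itga2b (5 of 7). In LPS mice the order was the same, with Gp9 at 258 and Itga2b at 255 CPM per kilobase level, each the higher in 2 of 4 mice, and Gp1ba at 24.4 above Vwf at 14.1 and Gp6 at 9.01 in all 4. In ALY688 mice Gp9 had 400 CPM per kilobase and Itga2b 260, and Vwf at 27.5, Gp1ba at 24.2 and Gp6 at 23.8 did not differ beyond their spread, Vwf standing above Gp1ba in 7 of 10 mice and Gp1ba above Gp6 in 6 of 10. In PBS mice the order was that of the ALY688 mice, with Gp9 at 863 CPM per kilobase, Itga2b at 507, Treml1 at 343, Gp5 at 196, Itgb3 at 139, Vwf at 52.3, Gp1ba at 49.9, Gp6 at 43.8 and Selp at 4.86. Vwf stood above Gp1ba in 5 of 9 PBS mice. The place of Gp1ba relative to Vwf thus differed on the per-length scale: above it in every mouse given LPS, and near it in the others.

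The LPS mice were compared with the PBS mice to ask what endotoxaemia does to these transcripts. Gp6, Itgb3, Treml1, Selp and Vwf fell, by about 2 on the log2 scale, while Gp1ba, Gp5, Gp9 and Itga2b did not pass the test. In edgeR's quasi-likelihood test with Benjamini-Hochberg adjustment over all genes, 5 of the 9 tested members fell and none rose, beside 38.7% of 12353 genes called in either direction and 17.9% that fell. Gp6 averaged 53.2 ± 39.5 CPM in LPS mice and 258 ± 214 CPM in PBS mice (SD, n = 4 and 9), a log2 fold change of -2.32 ± 0.71 (SE, adjusted p = 0.0173). Itgb3 averaged 202 ± 113 CPM in LPS mice and 820 ± 717 CPM in PBS mice (-2.07 ± 0.67, adjusted p = 0.0226). Treml1 averaged 108 ± 69.2 CPM in LPS mice and 481 ± 453 CPM in PBS mice (-2.21 ± 0.75, adjusted p = 0.0298). These encode the collagen receptor, the β chain of the fibrinogen receptor and a granule receptor. Vwf averaged 227 ± 144 CPM in LPS mice and 840 ± 701 CPM in PBS mice (-1.93 ± 0.68, adjusted p = 0.0329). Selp averaged 6.03 ± 2.69 CPM in LPS mice and 21.5 ± 21.7 CPM in PBS mice (-1.87 ± 0.66, adjusted p = 0.0352).

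The subunits of the complex that binds von Willebrand factor gave smaller differences. Gp9 had a log2 fold change of -1.79 ± 0.75 (adjusted p = 0.0701), Gp5 of -1.60 ± 0.68 (adjusted p = 0.0753) and Gp1ba of -1.07 ± 0.64 (adjusted p = 0.202), all by edgeR's quasi-likelihood test. Itga2b, at 1392 ± 906 CPM in LPS mice and 2767 ± 2306 CPM in PBS mice, had -1.04 ± 0.69 (adjusted p = 0.250). The median over the 9 members was -1.87, beside -0.04 over all genes. The groups overlapped for every member in CPM.

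This count rested on few mice and on the scaling. Without LPS mouse 2 or LPS mouse 6 none of the 9 members passed, and without LPS mouse 8 only Gp6 did. Without the libraries of few detected genes, which took out 3 PBS mice, Gp6 (-1.46, adjusted p = 0.0368) and Itgb3 (-1.16, adjusted p = 0.0401) remained and the median was -0.90. With total counts in place of TMM, Gp6 and Itgb3 passed and the members' median was -0.48 where the median of all genes moved to 1.04, so that relative to all genes the members lay at -1.52. With the globin percentage as a covariate none passed and the median was 1.31; the globin percentage differed between the groups, so the covariate and LPS cannot be told apart.

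**Figure D2:**
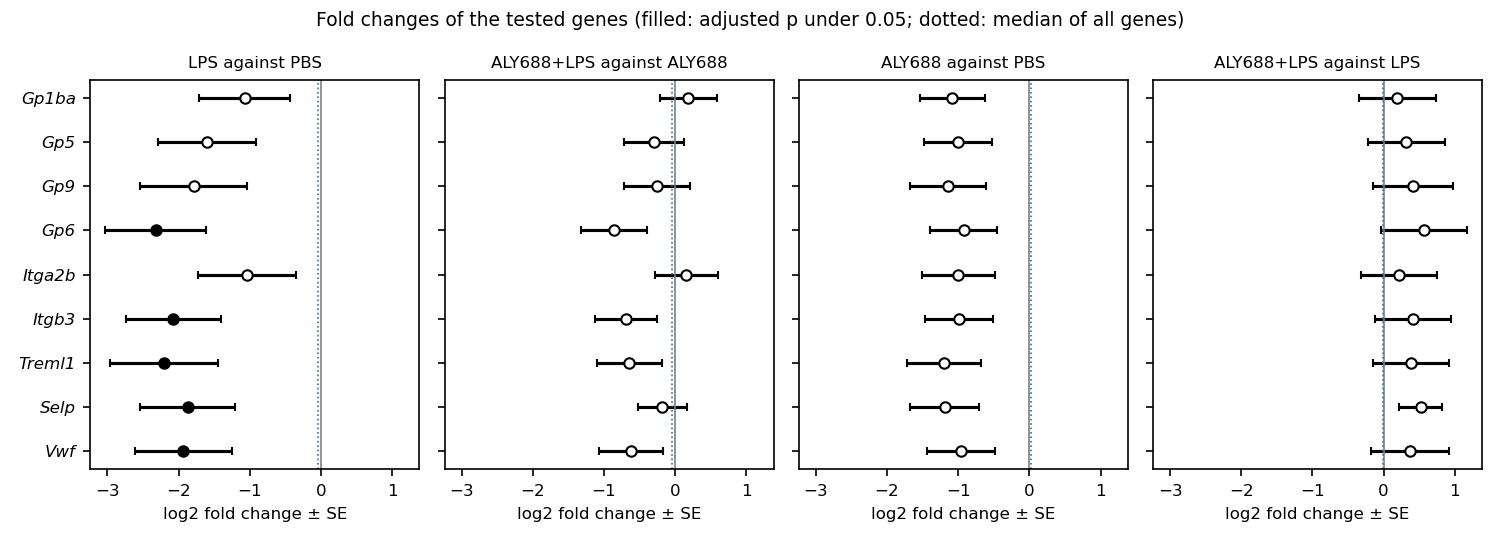
Log2 fold change of the 9 tested genes in 4 comparisons (LPS against PBS, ALY688+LPS against ALY688, ALY688 against PBS, ALY688+LPS against LPS), with bars of 1 SE from edgeR. Filled points passed an adjusted p of 0.05, and the dotted line is the median of all genes tested. Only LPS against PBS has filled points, 5 of 9, all below 0.

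Mice given ALY688 and LPS were compared with mice given ALY688 alone, the same contrast on the agonist's background and with no library in common with the first. By edgeR's test 0 of the 9 members passed, beside 53.0% of 12266 genes (26.4% that rose and 26.6% that fell), while by DESeq2 and limma-voom 0 members passed as well and none had an unadjusted p below 0.05 in edgeR's test. Gp6 had the lowest value, at 77.8 ± 50.4 CPM in ALY688+LPS mice and 140 ± 71.8 CPM in ALY688 mice (-0.86 ± 0.47, adjusted p = 0.132). Itgb3 (-0.69 ± 0.44), Treml1 (-0.64 ± 0.46) and Vwf (-0.62 ± 0.45) followed. Gp1ba (0.19 ± 0.40) and Itga2b (0.16 ± 0.45) stood at the other end, at 1600 ± 804 CPM for Itga2b in ALY688+LPS mice and 1419 ± 877 CPM in ALY688 mice. The order of the members was thus close to that of LPS against PBS, with Gp6 lowest and Gp1ba and Itga2b highest in both. By edgeR's test Gp6 passed without ALY688 mouse 1 (adjusted p = 0.0390), the lowest library of its group. It also passed without ALY688+LPS mouse 8 (adjusted p = 0.0347), the highest of its own in TMM-scaled CPM. With total counts in place of TMM it passed as well (adjusted p = 0.0307).

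To set the members against each other inside a library, each was expressed per 100 counts of Itga2b, a measure that does not depend on the scaling of libraries. Such a ratio shows unequal change only, and a lower ratio can come from the gene or from Itga2b. In both pairs of groups, Gp6, Itgb3, Treml1, Vwf and Gp5 were lower relative to Itga2b in the mice given LPS, by an exact permutation test. That test was chosen after the data had been seen, and Gp1ba did not pass it. The edgeR test with the log Itga2b count as an offset called only Gp6 for LPS against PBS. It called no member for ALY688+LPS against ALY688.

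Gp6 had 3.36, 4.33 and 6.00 counts per 100 Itga2b counts (lowest, median, highest) in ALY688+LPS mice and 2.86, 4.08, 4.12 and 3.84 in LPS mice 2, 6, 7 and 8. It had 7.82, 10.04 and 13.02 in ALY688 mice and 7.99, 8.76 and 12.4 in PBS mice. All 11 LPS-treated libraries lay below all 19 libraries without LPS. Over all genes, 2.06% had all LPS mice below all PBS mice on this ratio. For 1.3% all ALY688+LPS mice lay below all ALY688 mice. The share of genes for the 11 libraries against the 19 is not given here. Itgb3 had 13.3, 14.4 and 22.1 counts per 100 Itga2b counts in ALY688+LPS mice and 12.9, 20.7, 13.4 and 15.3 in LPS mice, against 27.1, 29.7 and 37.8 in ALY688 mice and 26.2, 29.6 and 33.3 in PBS mice. The β3 transcript was therefore lower against its own αIIb partner in every LPS-treated library. Vwf had 15.6, 16.9 and 22.3 in ALY688+LPS mice and 14.9, 19.8, 16.3 and 16.2 in LPS mice, against 27.8, 30.7 and 39.8 in ALY688 mice and 26.9, 30.3 and 35.9 in PBS mice. Treml1 had 6.84, 8.49 and 10.6 in ALY688+LPS mice and 6.84, 9.57, 7.77 and 7.73 in LPS mice, against 13.7, 15.0 and 17.2 in ALY688 mice and 12.9, 16.0 and 20.5 in PBS mice. For both genes the groups with and without LPS stood apart.

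Within the GPIb-IX-V complex the subunits differed. Gp5 had 9.70, 11.05 and 14.2 counts per 100 Itga2b counts in ALY688+LPS mice and 8.86, 10.5, 11.01 and 10.8 in LPS mice, against 14.3, 15.0 and 18.5 in ALY688 mice and 12.6, 15.9 and 18.1 in PBS mice. Gp9 had 15.8, 17.8 and 22.3 in ALY688+LPS mice and 15.8, 17.9, 16.7 and 15.4 in LPS mice, against 20.9, 24.2 and 27.4 in ALY688 mice and 14.3, 26.1 and 35.0 in PBS mice. Gp5 stood apart between the mice given LPS and their counterparts without it, and Gp9 overlapped in both pairs. Gp1ba had 3.31, 4.42 and 6.22 in ALY688+LPS mice and 3.47, 4.56, 5.43 and 4.51 in LPS mice, against 3.73, 4.81 and 5.75 in ALY688 mice and 3.69, 5.14 and 6.55 in PBS mice. Its 4 groups covered nearly the same range. Selp had 0.330, 0.603 and 1.30 in ALY688+LPS mice and 0.387, 0.840, 0.368 and 0.445 in LPS mice, against 0.506, 0.720 and 0.894 in ALY688 mice and 0.572, 0.738 and 0.986 in PBS mice, with overlap in both pairs.

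**Figure D3:**
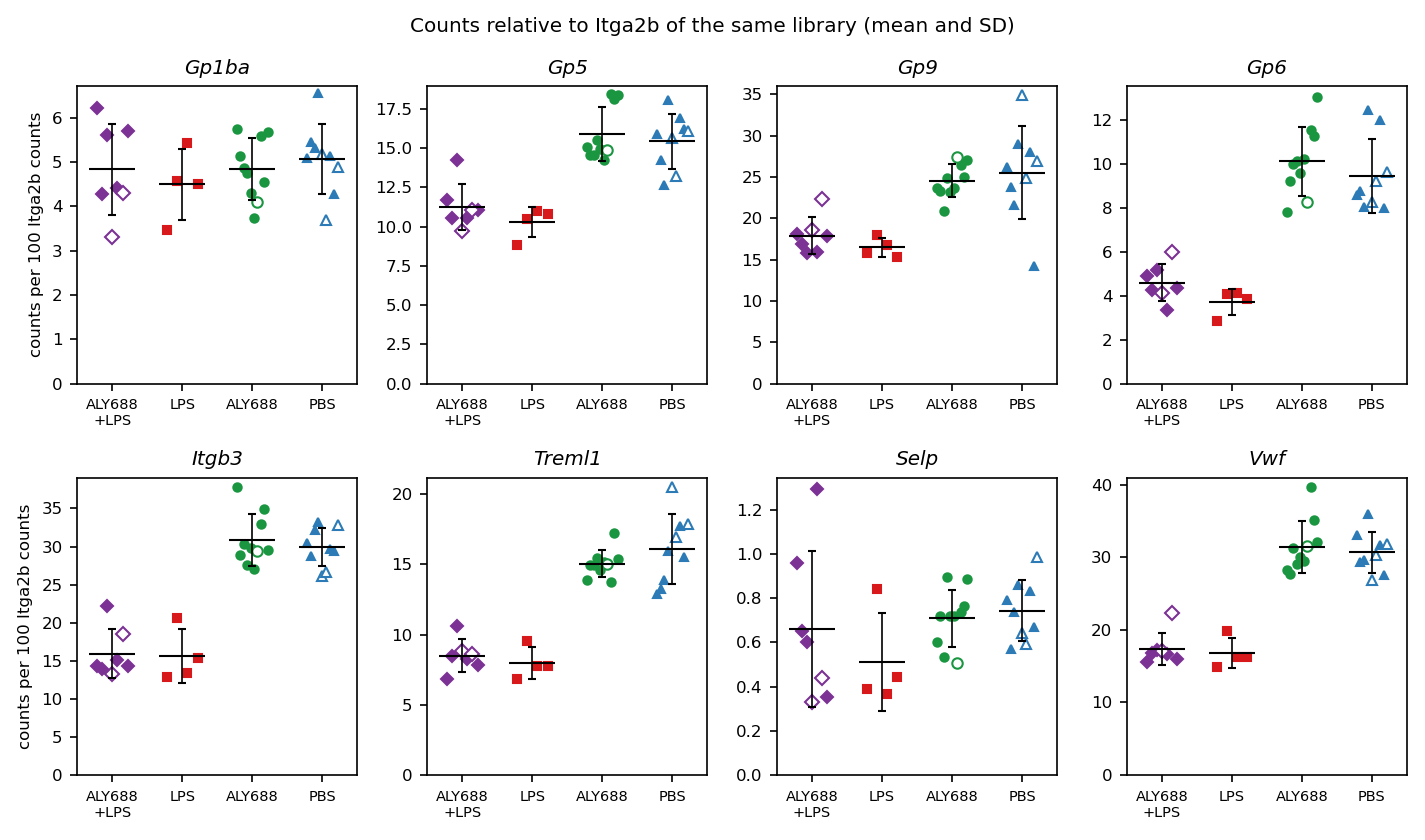
Counts of 8 platelet adhesion genes per 100 Itga2b counts in each library, with the mean and SD of the ALY688+LPS, LPS, ALY688 and PBS groups. For Gp6, Itgb3, Treml1 and Vwf the points of both LPS-treated groups lie below those of both other groups, Gp6 at 2.86 to 6.00 with LPS and 7.82 to 13.02 without. For Gp1ba they cover the same range. Over all genes, 2.06% lay wholly lower in LPS mice than in PBS mice, and 1.3% in ALY688+LPS mice than in ALY688 mice.

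These differences were tested in 2 ways. An exact permutation test of the log2 ratio over all genes, two-sided with Benjamini-Hochberg adjustment, was chosen after the data had been seen. For LPS against PBS it called 5 of 8 members, all lower, beside 9.2% of 12352 genes in either direction and 2.81% lower. The log2 ratio to Itga2b differed by -1.34 ± 0.15 (SE) for Gp6, -1.01 ± 0.12 for Treml1, -0.96 ± 0.16 for Itgb3, -0.87 ± 0.10 for Vwf and -0.58 ± 0.09 for Gp5. For each, all 4 LPS mice lay below all 9 PBS mice, as for 2.06% of genes, with p = 0.0014, the smallest the permutations can give (adjusted p = 0.0221). Gp9 (-0.60 ± 0.13, exact adjusted p = 0.0777), Selp (-0.61 ± 0.29, exact adjusted p = 0.115) and Gp1ba (-0.18 ± 0.15, exact adjusted p = 0.455) did not pass. Without LPS mouse 2, 6 or 8, or without the libraries of few detected genes, none of the 8 passed. The smallest exact adjusted p was then 0.0664 to 0.0704 and 0.0606, and the Gp6 difference lay between -1.39 and -1.21. Fewer mice give fewer permutations, so the smallest possible p is larger. Groups that lie wholly apart must stay apart when mice are left out. These fits therefore cannot test whether the 5 differences depend on single mice.

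For ALY688+LPS against ALY688 the same test called 6 of 8 members, all lower, beside 11.5% of 12265 genes and 7.46% lower. The differences were -1.14 ± 0.12 (SE) for Gp6, -0.97 ± 0.11 for Itgb3, -0.85 ± 0.08 for Vwf, -0.83 ± 0.08 for Treml1 and -0.50 ± 0.08 for Gp5. In each of these 5 all 7 ALY688+LPS mice lay below all 10 ALY688 mice, as for 1.3% of genes, with p = 5.1e-05, the smallest the permutations can give (exact adjusted p = 0.00279). Gp9 differed by -0.46 ± 0.07 (exact adjusted p = 0.00387), with 6 of 7 ALY688+LPS mice below every ALY688 mouse. Gp1ba (-0.02 ± 0.14, exact adjusted p = 0.958) and Selp (-0.24 ± 0.29, exact adjusted p = 0.654) did not pass. All 17 fits that left out 1 mouse called 6 members, and 6 were called without the libraries of few detected genes.

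The other test of this ratio, edgeR's with the log Itga2b count as an offset, gave similar sizes and fewer calls. For LPS against PBS it called Gp6 alone of 8 members (-1.34 ± 0.40, adjusted p = 0.0374), beside 10.1% of 12352 genes called, 9.12% that rose and 0.947% that fell. Treml1 (-1.01 ± 0.36, adjusted p = 0.0836), Itgb3 (-0.94 ± 0.31, adjusted p = 0.0681) and Vwf (-0.87 ± 0.30, adjusted p = 0.0815) did not pass it. Without any 1 of PBS mice 1, 2, 4, 5, 6, 7 and 8 or of LPS mice 2, 7 and 8, none passed; without LPS mouse 6 Itgb3 passed and Gp6 did not, and without PBS mouse 3 there were 4. For ALY688+LPS against ALY688 it called 0 of 8, beside 11.3% of 12265 genes (4.37% that rose and 6.93% that fell), with 3010 genes and 2 members at an unadjusted p below 0.05; Gp6 had -1.14 ± 0.47 (adjusted p = 0.115) and Itgb3 -0.95 ± 0.45 (adjusted p = 0.175). Without ALY688 mouse 1 it called 3, Gp6, Itgb3 and Vwf.

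Other platelet transcripts also moved unequally against Itga2b. Ppbp, which encodes a chemokine of the α granules, had 47.7 ± 14.8 counts per 100 Itga2b counts in LPS mice and 112 ± 26.9 in PBS mice (log2 difference -1.24, exact permutation adjusted p = 0.0221), and 52.5 ± 13.7 in ALY688+LPS mice and 119 ± 20.9 in ALY688 mice (-1.21, exact adjusted p = 0.00279). Pf4, platelet factor 4, had 52.1 ± 6.08 in LPS mice and 53.9 ± 7.38 in PBS mice (-0.05, exact adjusted p = 0.792), and 60.0 ± 7.92 in ALY688+LPS mice and 54.1 ± 3.83 in ALY688 mice (0.14, exact adjusted p = 0.298). Both chemokines are stored in the α granules, and of these Ppbp passed in both pairs of groups and Pf4 in neither. Clec1b, the podoplanin receptor, was lower relative to Itga2b in both pairs (-0.70, exact adjusted p = 0.0221, and -0.38, exact adjusted p = 0.00387), and Tubb1, the platelet β tubulin, passed in neither (-0.16 and -0.12). With Gp1ba in place of Itga2b as the denominator, chosen after the data had been seen, 4 members passed for LPS against PBS, Gp5 no longer (exact adjusted p = 0.0642), and 5 for ALY688+LPS against ALY688, Gp9 no longer (exact adjusted p = 0.0800). Gp1ba itself had differed little from Itga2b (-0.18 and -0.02), so this denominator could hardly change the outcome. With Itga2b, Pf4 and Ppbp summed as reference, edgeR's offset fit called no member in either pair, beside 1720 of 12350 and 1087 of 12263 genes. The members' median was then -0.35 for LPS against PBS and -0.30 for ALY688+LPS against ALY688.

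ALY688 alone was compared with PBS to ask whether the agonist changes these transcripts in mice without LPS. By edgeR's test 0 of the 9 members passed, beside 0.0% of 11708 genes; 1250 genes had an unadjusted p below 0.05, 6 members among them, and DESeq2 and limma-voom also called 0 genes. All 9 members had lower values in ALY688 mice, with log2 fold changes of -1.20 ± 0.52 for Treml1, -1.19 ± 0.48 for Selp, -1.14 ± 0.53 for Gp9, -1.08 ± 0.45 for Gp1ba, -0.999 ± 0.48 for Gp5, -0.997 ± 0.51 for Itga2b, -0.99 ± 0.47 for Itgb3, -0.96 ± 0.48 for Vwf and -0.92 ± 0.47 for Gp6 (SE, adjusted p = 0.442 for each). Itga2b averaged 1419 ± 877 CPM in ALY688 mice and 2767 ± 2306 CPM in PBS mice, and Selp 9.64 ± 4.56 CPM in ALY688 mice and 21.5 ± 21.7 CPM in PBS mice. The median was -0.999 beside 0.03 over all genes. PBS mice 5 and 9, the highest of their group, are libraries of few detected genes. Without the 4 such libraries of these groups the median was -0.29, and with total counts it was -0.25 where all genes moved to 0.50, which puts the members at -0.74 relative to them. The differences were close to equal among the members: relative to Itga2b 0 of 8 passed in edgeR's offset fit, beside 0.0% of 11707 genes with 450 at an unadjusted p below 0.05, the median was -0.01, and the exact permutation test also called 0 of 8, beside 0.0%.

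Adding ALY688 to LPS was compared with LPS alone to ask whether the agonist changes the response. By edgeR's test 0 of the 9 members passed, beside 0.0% of 12741 genes, with 463 genes and none of the members at an unadjusted p below 0.05 and 0 genes called by DESeq2. All 9 members had higher values in ALY688+LPS mice, from 0.19 ± 0.55 for Gp1ba to 0.56 ± 0.61 for Gp6 (log2 fold change, SE, adjusted p = 0.913 to 0.971), with a median of 0.38. Selp had the smallest p, at 8.54 ± 2.57 CPM in ALY688+LPS mice and 6.03 ± 2.69 CPM in LPS mice (0.52 ± 0.31, edgeR adjusted p = 0.913). The 95% interval for Gp6 ran from -0.76 to 1.89, so a difference of either sign was within the spread of 7 and 4 mice. Without the 2 ALY688+LPS libraries of few detected genes the median was -0.003, and with total counts it was -0.17 where all genes moved to -0.49. Relative to Itga2b 0 of 8 passed by the offset fit, beside 0.0% of 12740 genes with 94 at an unadjusted p below 0.05, with a median of 0.11, and 0 of 8 by the exact permutation test, beside 0.0%. With 330 permutations the smallest p of that exact test was 0.0030. After adjustment over 12740 genes a gene could pass only if many genes shared that p.

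The difference between the LPS effect with ALY688 and the LPS effect without it was tested as an interaction in edgeR over all 4 groups. It was positive for all 9 members, from 1.21 ± 0.80 for Itga2b to 1.70 ± 0.72 for Selp (log2, SE), with a median of 1.40, and 0 of 9 passed (adjusted p = 0.506 to 0.531), beside 0.0% of 13476 genes. Selp alone of the members had an unadjusted p below 0.05 (0.0259), 1217 genes did, and DESeq2 called 4 genes, none a member. The effects of LPS with and without ALY688 were therefore not shown to differ. Without the libraries of few detected genes the median interaction was 0.30, and with total counts 0.13 where all genes moved to -0.998.

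The members were also set against the share of globin counts in each library, as CPM of the non-globin counts. Over the LPS and ALY688+LPS mice together, with the group as a term, 6 of 9 members rose with the globin percentage in edgeR's test, beside 72.8% of 12663 genes called, 5.31% upward and 67.5% downward. Per 10 percentage points of globin, Gp6 rose by 0.48 ± 0.16 (log2, SE, adjusted p = 0.0117), Gp9 by 0.46 ± 0.12 (adjusted p = 0.00281), Vwf by 0.43 ± 0.12 (adjusted p = 0.00403), Treml1 by 0.42 ± 0.14 (adjusted p = 0.0137), Itga2b by 0.40 ± 0.14 (adjusted p = 0.0121) and Gp5 by 0.40 ± 0.17 (adjusted p = 0.0387), where the median gene had -0.44. Gp1ba (0.37 ± 0.20), Itgb3 (0.35 ± 0.16) and Selp (-0.13 ± 0.13) did not pass. These 6 transcripts went up with the red cell transcripts, while most other genes went down. Without LPS mouse 7 the count was 2, and without ALY688+LPS mouse 7 it was 3.

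Over the PBS and ALY688 mice 0 of 9 members passed in edgeR's test, beside 66.5% of 11653 genes, 2.81% upward and 63.7% downward. Their slopes ran from 0.15 ± 0.27 for Selp to 0.47 ± 0.25 for Treml1, with a median of 0.31 where the median gene had -0.60, and none had an unadjusted p below 0.05. Without ALY688 mouse 1, the library with the lowest member levels, Gp9 and Treml1 passed.

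Within single groups, correlations with the globin percentage were computed for 9 members in each of the 3 groups of at least 6 mice, 27 in all, with p-values adjusted over all genes. In ALY688+LPS mice (n = 7) 0 of 9 passed, beside 58.9% of 12734 genes and 3.29% with a positive r. Gp9 had the highest Pearson r, 0.70 (permutation p = 0.045, adjusted p = 0.069; Spearman rho 0.71, permutation p = 0.088, adjusted p = 0.131), and Selp the lowest, -0.68. Without mice 6 and 8, the farthest from the median globin percentage and both libraries of few detected genes, the other 8 members had r from 0.82 to 0.89 and Selp -0.14 over 5 mice. In ALY688 mice (n = 10) r ran from -0.11 to 0.11 and 0 of 9 passed by the permutation test, beside 42.0% of 11701 genes and 1.09% with a positive r; without mice 2 and 7 it ran from -0.41 to -0.20. In PBS mice (n = 9) Treml1 had the highest r, 0.75 (permutation p = 0.019, adjusted p = 0.071; rho 0.62, permutation p = 0.086, adjusted p = 0.182), and Selp the lowest, 0.54, and 0 of 9 passed, beside 0.0% of 11701 genes. Without PBS mice 3 and 6 r lay between 0.33 and 0.60 over the other 7. The median gene had r = -0.81 in ALY688+LPS mice, -0.65 in ALY688 mice and -0.65 in PBS mice.

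**Figure D4:**
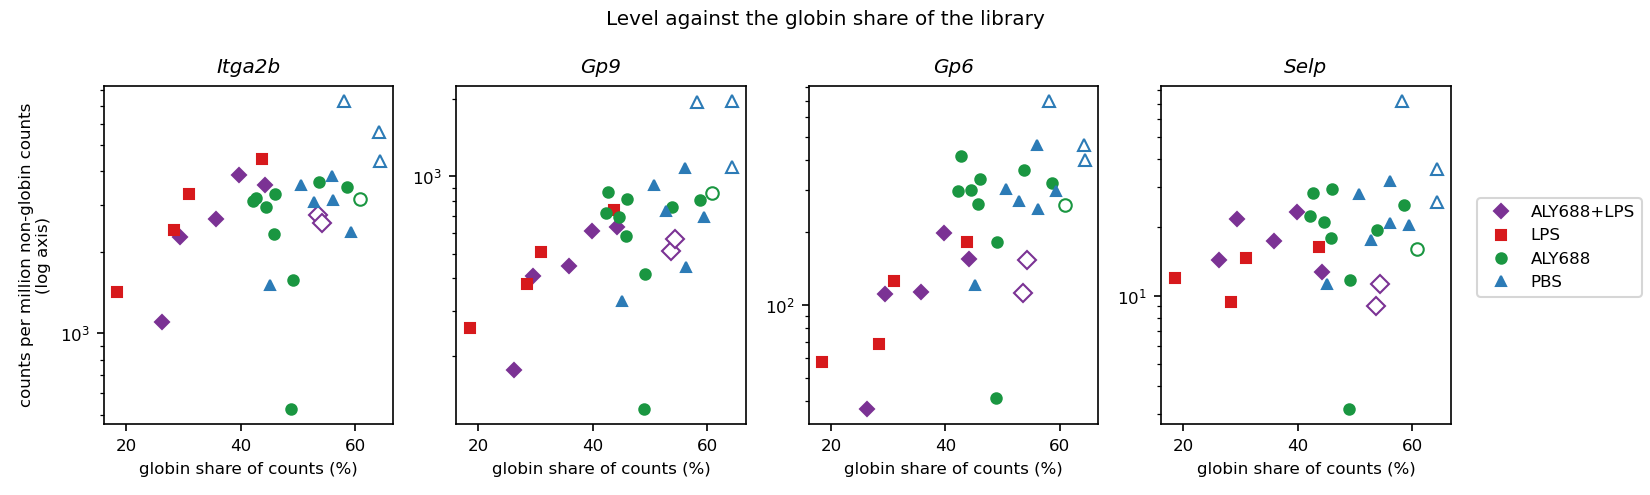
Itga2b, Gp9, Gp6 and Selp, as CPM of the non-globin counts on a log axis, against the percentage of counts from globin genes in the same library, for the ALY688+LPS, LPS, ALY688 and PBS groups. Each point is 1 mouse; globin ran from 18.5% to 64.4%. Gp9, Gp6 and Itga2b go up with globin among the LPS-treated mice and Selp does not.

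Among themselves the members moved closely together. After each group's mean had been subtracted, the 36 pairs of the 9 tested members had a Pearson r of log2 CPM between 0.90 and 0.99 over the 30 libraries, with a median of 0.98. The pairs with Selp were the loosest, at 0.90 to 0.92. These values share library and depth and are given as a description. The 10 other genes most alike to the members' mean were Srxn1, an antioxidant enzyme (r = 0.995), P2rx1, the platelet's ATP-gated channel (0.995), Gas2l1 (0.993), Clu, the granule protein clusterin (0.993), Alox12, the platelet lipoxygenase (0.991), F2rl2, a thrombin receptor subunit (0.991), Clic4 (0.991), Nlrp6 (0.990), Pttg1ip (0.990) and Ywhah (0.990). An r above 0.9 was found for 532 of 13467 genes, and the median gene had -0.28.

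Other genes of the adhesion pathway gave a mixed picture under LPS. The counts that follow include any member a list holds. Of 23 tested other platelet surface receptors, 12 fell and 1 rose in LPS mice against PBS mice by edgeR's test, beside 17.9% of 12353 genes that fell and 20.9% that rose, with a median log2 fold change of -1.66 beside -0.04 over all genes. Among them Cd226, an adhesion receptor shared with lymphocytes, averaged 52.8 ± 31.1 CPM in LPS mice and 264 ± 175 CPM in PBS mice (-2.37 ± 0.61, adjusted p = 0.00615), and the thromboxane receptor Tbxa2r 1.81 ± 0.668 CPM in LPS mice and 7.32 ± 3.08 CPM in PBS mice (-2.09 ± 0.38, adjusted p = 0.000465). The one that rose was Fcgr2b, an inhibitory IgG receptor of leukocytes (1.12 ± 0.20, adjusted p = 0.000333). Of 25 platelet granule and cytoskeletal genes, 15 fell and 1, Nbeal2, rose (median -1.77); Cavin2, a caveolar coat protein, fell by 3.06 (adjusted p = 0.00441) and Slc24a3, an ion exchanger, by 2.55 (adjusted p = 0.00766).

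The signalling chains behind the receptors held genes that rose as well as genes that fell. Of 11 genes of the collagen receptor and its signalling chain, 4 rose in LPS mice against PBS mice: Vav3 (1.27 ± 0.23), Lcp2 (1.08 ± 0.22), Vav1 (0.85 ± 0.16) and Plcg2 (0.76). 3 fell: Gp6 itself, Lat (-1.16) and Fyn (-0.65); the median was 0.10. These 7 called genes of 11 stand beside 38.7% of all genes called. Lcp2 encodes the adaptor SLP-76 and Vav1 a guanine nucleotide exchange factor, both also used by leukocytes. Of 9 genes that activate the fibrinogen receptor, Apbb1ip, the Rap1 effector RIAM, rose (0.99 ± 0.16, edgeR adjusted p = 0.000147), at 105 ± 18.8 CPM in LPS mice and 51.2 ± 5.18 CPM in PBS mice. Rasgrp2, the exchange factor CalDAG-GEFI, fell (-1.67 ± 0.50, adjusted p = 0.0144), at 197 ± 64.1 CPM in LPS mice and 605 ± 372 CPM in PBS mice. The median of that list was -0.34. Neutrophil and monocyte marker sums moved with these groups too, monocytes at 492 to 924 CPM in LPS mice and 170 to 498 CPM in PBS mice, and their part in the signalling genes was not tested.

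Of 6 inhibitory platelet receptors, Pirb (2.45 ± 0.27, edgeR adjusted p = 4.75e-06), Lilrb4a (2.14 ± 0.35), Cd300a (1.33 ± 0.24) and Ceacam1 (1.13) rose, genes that leukocytes also carry, while Mpig6b, the megakaryocyte and platelet receptor G6b-B, fell by 2.67 and Pecam1 by 1.29. Of 4 tested ligands and plasma partners, Selplg, which encodes the P-selectin ligand PSGL-1, rose to 430 ± 140 CPM in LPS mice, against 149 ± 15.4 CPM in PBS mice (1.48 ± 0.24, adjusted p = 0.000157), while Thbs1, thrombospondin 1, fell (-2.06 ± 0.67, adjusted p = 0.0232), as did Vwf. Selp was thus lower and Selplg, whose product is on leukocytes, higher. Neutrophil marker sums were 3786 to 12268 CPM in LPS mice and 485 to 1838 CPM in PBS mice. Their part in the Selplg level was not tested. Selp did not pass with total counts or without libraries of few detected genes. Among megakaryocyte transcription factors Ets1 (-1.93 ± 0.32), Runx1 (-0.72) and Fli1 (-0.49 ± 0.14) fell; T cells express Ets1 too, and the T cell marker sum was 26.3 to 43.3 CPM in LPS mice and 51.1 to 205 CPM in PBS mice.

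In ALY688+LPS mice against ALY688 mice 53.0% of 12266 genes were called, 26.4% that rose and 26.6% that fell. Of the 23 surface receptors, Ptger3 (2.49 ± 0.38) and Fcgr2b (0.98 ± 0.16) rose and Tbxa2r (-1.88 ± 0.25), Itga2 (-0.81) and Pear1 (-0.69) fell by edgeR's test, with a median of -0.38 beside -0.05 over all genes. Of 25 granule and cytoskeletal genes Nbeal2 (0.75 ± 0.12) rose and Cavin2 (-1.30 ± 0.51, adjusted p = 0.0416) fell, with a median of -0.40. Of the 11 genes of the collagen signalling chain 6 rose, with the smallest p for Lcp2 (1.53 ± 0.11), Vav3 (1.59 ± 0.12) and Vav1 (0.83 ± 0.08) and the largest rise for Fcer1g, the γ chain that pairs with GPVI (1.78), and 2 that fell, Fyn (-0.41) and Lat (-0.58), with a median of 0.51. Of the fibrinogen receptor's activators, Apbb1ip (1.13 ± 0.08), Fyb (1.19 ± 0.13), Rap1a (0.74 ± 0.21) and Gna13 (0.23) rose. Selplg rose to 478 ± 60.9 CPM in ALY688+LPS mice, against 139 ± 6.25 CPM in ALY688 mice (1.77 ± 0.12, adjusted p = 3.58e-10). Pirb, Lilrb4a, Ceacam1 and Cd300a rose again, by 1.42 to 2.46. Among transcription factors Mafg, Mafk, Nfe2, Gfi1b and Gata1 rose, by 0.54 to 1.15, and Ets1 (-1.86 ± 0.19), Fli1 (-0.43 ± 0.08) and Runx1 (-0.34) fell. Neutrophil marker sums were 4909 to 12029 CPM in ALY688+LPS mice and 433 to 1005 CPM in ALY688 mice. The part of blood cells other than platelets in these changes was not tested. Genes of these lists given without an SE of their own were named after their values had been seen.

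Many genes of the other platelet lists were lower relative to Itga2b as well. By the exact permutation test of log2 ratios, 13 of 25 granule and cytoskeletal genes were lower and none higher in LPS mice against PBS mice, with a median of -0.64 beside 0.88 over all genes, and 15 of 25 were lower and none higher in ALY688+LPS mice against ALY688 mice, with a median of -0.62 beside -0.31 over all genes. Of the other surface receptors 9 of 23 were lower and 1 higher in LPS mice, and 12 lower and 1 higher in ALY688+LPS mice. Over all genes 2.81% were lower in LPS mice against PBS mice and 7.46% in ALY688+LPS mice against ALY688 mice. In the comparisons of ALY688 with PBS and of ALY688+LPS with LPS, no gene of any of the 10 lists passed edgeR's test or the exact permutation test, as no gene at all did. The median log2 fold change of ALY688 against PBS was -0.87 for the 22 other surface receptors tested and -1.01 for the 25 granule and cytoskeletal genes, beside -0.999 for the members. The comparisons with PBS share their PBS mice, and those with ALY688+LPS share theirs.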

How the data were processed

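RNA from mouse blood was sequenced after poly(A) selection and random priming, per the labels' protocols. The authors deposited raw read counts per gene for each mouse. The submitters' processing notes name HISAT2 2.0.5, an aligner, and featureCounts 1.5.0-p3, a read counter. No source used here gives a genome build, an annotation or whether strand was used. Of 54532 gene IDs, 54495 were found in GENCODE M21 (GRCm38), which gave symbols, coordinates and exon lengths.

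Libraries were scaled by TMM and genes filtered with filterByExpr for each comparison. Counts were tested with edgeR 4.0.16 (quasi-likelihood, robust) in R 4.3.3, Benjamini-Hochberg adjusted over all genes tested at 0.05. DESeq2 1.42.0, limma 3.58.1 voom and the other settings in the closing section were alternatives. Each comparison used its own groups, and the interaction all 4. Ratios to Itga2b were tested with the log Itga2b count as an offset, and by exact permutation of log2 ratios over mice. The edgeR tests and the permutation tests of differences and correlations were tried on simulated data with known answers first. There the offset fit had a reference of little noise, and the globin slopes were fitted with TMM scaling. DESeq2 and limma-voom were not tried in this way. No pair of libraries of a group agreed within sampling noise (lowest chi-square per degree of freedom 8.02 over 108 pairs).

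Named genes were all 10 members, up to 3 genes with the smallest p of each of 10 pathway lists per comparison, and the 10 genes most alike. The members and lists were chosen with earlier results of these data known. Depth limits a library to about 3 counts, 0.173 to 0.314 CPM, and such floors cover counting error only. Not every called gene of the transcription factor list is reported here.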

Additional observations from a re-analysis of the deposited data

Results flagged for a closer look

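Of 68 groups of member levels and ratios, 7 held a mouse set apart from the others by a gap larger than Dixon's 95% limit; chance gives this in about 1 in 20 groups. ALY688 mouse 1 was the low one for 4 genes, with 31.4 CPM for Gp5, 16.3 CPM for Gp6, 1.26 CPM for Selp and 59.0 CPM for Vwf. The members share each library, so these 4 are not independent. In counts per 100 Itga2b counts, Treml1 stood out high in ALY688 mouse 9 at 17.2, Selp high in LPS mouse 6 at 0.840 and Vwf high in ALY688+LPS mouse 8 at 22.3. The last of these was still below every ALY688 mouse.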

How the results depend on the processing

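Each result was recomputed under other settings; leaving out 1 mouse or few-gene libraries in the permutation test, and Gp1ba as its denominator, were chosen after seeing the data. The counts of members called were within 1.5 times the reported ones in 65 of 77 settings. A reported count of 0 that stayed 0 was scored as agreement, also in comparisons where edgeR called no gene at all. The 65 therefore say little about the counts above 0. For LPS against PBS, reported as 5 of 9, they were 2 with total counts, 2 with no filter on low counts, 0 with the globin covariate and 2 without libraries of few detected genes. Relative to Itga2b, reported as 1 for LPS against PBS and 0 for ALY688+LPS against ALY688, the permutation test gave 5 and 6, and the sum of Itga2b, Pf4 and Ppbp as reference gave 0 for LPS against PBS. ALY688+LPS against ALY688 gave 1 with total counts. The permutation count of LPS against PBS was 0 without libraries of few detected genes. Fewer mice give fewer permutations there, so the smallest possible p is larger. The globin slope count was 7 in PBS and ALY688 mice with TMM-scaled totals and 3 in LPS and ALY688+LPS mice with the replicate block, and 3 correlations passed in ALY688+LPS mice with TMM scaling. The cause of these changes was not tested.

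Leaving out 1 mouse at a time gave 0 to 7 members for LPS against PBS, 0 to 4 relative to Itga2b and 0 to 6 by permutation; 0 to 1 for ALY688+LPS against ALY688, 0 to 3 relative to Itga2b and 6 to 6 by permutation; and 0 to 2 and 2 to 8 for the globin slopes without and with LPS. Values that changed sign ran, for ALY688+LPS against ALY688, from -0.0060 to 0.36 for Gp1ba, -0.61 to 0.024 for Gp9 and -0.092 to 0.39 for Itga2b, and relative to Itga2b from -0.073 to 0.072 for Gp1ba (-0.084 to 0.068 by permutation) and -0.35 to 0.016 for Selp; for ALY688+LPS against LPS, from -0.11 to 0.92 for Gp1ba and -0.086 to 0.74 for Itga2b, and relative to Itga2b from -0.00012 to 0.21 for Gp1ba, -0.063 to 0.20 for Itgb3 and -0.018 to 0.14 for Vwf; for ALY688 against PBS relative to Itga2b, from -0.13 to 0.012 for Gp9 and -0.0086 to 0.065 for Vwf; and for the Selp globin slope without LPS, from -0.042 to 0.26.

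The globin percentage as a covariate turned the most signs. For LPS against PBS it gave log2 changes of 1.97 for Gp1ba, 1.63 for Gp5, 0.87 for Gp6, 1.68 for Gp9, 2.11 for Itga2b, 0.66 for Itgb3, 1.31 for Treml1, 0.64 for Selp and 0.99 for Vwf. For ALY688+LPS against ALY688 it gave 0.19 for Gp5, 0.30 for Gp9 and 0.042 for Selp. For ALY688+LPS against LPS it gave -0.37 for Gp1ba, -0.39 for Gp5, -0.30 for Gp6, -0.48 for Gp9, -0.54 for Itga2b, -0.42 for Itgb3, -0.45 for Treml1 and -0.53 for Vwf, and for the interaction -0.0040 for Gp1ba, -0.15 for Gp5, -0.14 for Gp6, -0.24 for Gp9, -0.32 for Itga2b, -0.16 for Itgb3, -0.17 for Treml1 and -0.32 for Vwf. Total counts gave 0.11 for Gp1ba and 0.23 for Itga2b in LPS against PBS, and in ALY688+LPS against LPS -0.17 for Gp1ba, -0.14 for Gp5, -0.18 for Gp9, -0.30 for Itga2b, -0.17 for Itgb3, -0.16 for Treml1 and -0.24 for Vwf, and in the interaction -0.053 for Itga2b and -0.016 for Vwf. Without libraries of few detected genes, ALY688+LPS against LPS gave -0.0027 for Gp1ba, -0.13 for Gp9, -0.18 for Itga2b, -0.017 for Treml1 and -0.16 for Vwf, the LPS globin slope of Selp 0.11 and the permutation difference of Gp1ba in ALY688+LPS against ALY688 0.088. For Selp in ALY688+LPS against ALY688, limma-voom gave 0.043 and the replicate block 0.023, and TMM-scaled totals gave a globin slope with LPS of 0.30. With Itga2b, Pf4 and Ppbp summed as reference, Gp1ba had 0.23 in LPS against PBS and 0.36 in ALY688+LPS against ALY688, and Selp 0.31 in the second.

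Mice with the same number did not deviate together: of 9, 3, 4 and 7 pairs over the 4 comparisons, 2, 1, 2 and 2 were correlated above 0.1 and none was best with its own number. The replicate block kept only mice whose number occurred in both groups. That left 4 against 4 for LPS against PBS, without PBS mice 5 and 9 among others, and 3 against 3 for ALY688+LPS against LPS. With the replicate block 4 members passed for LPS against PBS, with a median of -1.34, and 0 in the other comparisons of groups. The 4 LPS mice and the few counts of Gp1bb and Selp set the limits here.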
